A study of Mus musculus with 25 samples.

Results

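The Slc25 family holds the carriers of the inner mitochondrial membrane, and its members were taken here as the genes whose symbol in the array's probe-to-gene table is Slc25a followed by a number. There were 46 such genes on the array, read by 76 of 45281 probes, out of 19057 genes with a symbol of their own, and 30 of them (of 10656 genes in all) had a probe whose signal was above background (detection p under 0.01) on at least 2 of 25 arrays. The inner membrane is closed to most solutes, and these carriers, which share a fold of repeated membrane helices, exchange phosphate, nucleotides, carboxylates, amino acids and cofactors across it. Among them are the carriers that let ADP and phosphate in for ATP synthesis, citrate out for lipid synthesis and acylcarnitine in for fatty acid oxidation. A few members lie elsewhere, such as the peroxisomal carrier Slc25a17.

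Mouse embryonic stem cells (the C57BL/6 line B6G-2, derived from a mouse that carries GFP, with the feeder cells removed) were grown as embryoid bodies (EBs), aggregates in which the first lineages begin to form, and exposed for 48 h to 1 of 12 chemicals or to the solvent DMSO at 0.1%. 17β-estradiol (E2), dihydrotestosterone (DHT), triiodothyronine (T3), dexamethasone (DEX), TCDD and a hydroxylated pentachlorobiphenyl (PCB) were given at 1 and 10 nM, and bisphenol A (BPA) at 1 and 100 pM. Thalidomide (TMD), permethrin (PMT) and cyclopamine (CPM) were given at 0.1 and 10 µM, and bis(2-ethylhexyl) phthalate (DEHP) and methoprene acid (MPA) at 1 and 100 µM. Each chemical and dose had 1 Illumina array and DMSO had 1. No condition was thus replicated, and all groups share 1 stem cell line. Tests between chemicals or with DMSO measure their spread from how far the arrays of the lower and the higher dose lay apart, pooled over the 12 chemicals. The dose tests measure theirs from how far the difference between the doses varied from chemical to chemical.

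The number of probes detected per array was 14451 to 16381. All 10 pluripotency markers looked at were detected on all 25 arrays, and none of the 3 early neural markers on any. Of 15 markers of primitive and visceral endoderm, 14 had a detected probe (Afp was detected on no array), and their summed linear signal was 42059 with DMSO, 41165 to 43263 with E2 and DHT, and 45825 to 52778 with T3, DEX and TCDD. It was 5462 to 5607 with BPA, 19076 to 19152 with PCB, 14749 to 17446 with TMD, PMT and CPM, and 54101 to 69086 with DEHP and MPA. The endoderm markers were thus low with BPA, PCB, TMD, PMT and CPM and high with DEHP and MPA, and their part in the results below was not tested. The summed signal of the pluripotency markers was 93878 with DMSO, 105952 to 108749 with BPA, 64901 to 75808 with DEHP and MPA, and 81146 to 91618 with the others. The 4 detected markers of feeder fibroblasts of 6 listed (Thy1 on 25 arrays, Dcn on 23, Col1a1 and Col1a2 on 3 and 2) summed to 930 with DMSO, 737 to 967 with E2 and DHT, 673 to 784 with T3, DEX and TCDD, 586 to 633 with BPA and 643 to 767 with DEHP and MPA. They summed to 506 to 577 with PCB and 311 to 406 with TMD, PMT and CPM, and 3 of 4 were called lower with each of TMD, PMT and CPM (median log2 difference -1.21 to -1.39), 2 with PCB and 1 with each of BPA, DEHP and MPA. Eomes, the only detected marker of 4 for early mesoderm, was lower with BPA (-1.61). The part of these markers in the results was not tested either. The 10 nM E2 array stood apart from the 1 nM array, and results that change without either E2 array are given below. Fewer cells of a type and less RNA per cell cannot be told apart in such samples.

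The comparison with DMSO asks which carriers each chemical changed. Of 360 pairs of gene and chemical, 72 (20.0%) passed an adjusted p of 0.05 in limma, beside 15.9% over all probes and chemicals. In 25 pairs, spread over 10 genes, the signal was higher than with DMSO, and in 47 pairs, also spread over 10 genes, it was lower. The lower calls were 13.1% of the pairs of the family and 7.85% over all probes, and the higher calls 6.94% and 8.05%. With the kept probes of each gene averaged, 53 of 360 pairs passed (20 higher and 33 lower), beside 15.9% over all. All these comparisons use the same single DMSO array, so their calls are not independent of each other.

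With E2 and DHT no carrier was called, as was no probe of the array (0% called), with 4 and 0 carriers at an unadjusted p under 0.05. Without the 1 nM E2 array, 3 carriers were called with E2 (9.36% of all probes). With T3, DEX and TCDD 1 of 30 carriers was called each, all lower. Over all probes 3.32% were called with T3 (2.16% higher, 1.15% lower), 3.32% with DEX (2.09% and 1.23%) and 3.08% with TCDD (1.91% and 1.18%). Each of these 3 counts fell to 0 without either array of its own chemical, and without either E2 array DEX rose to 5 carriers and TCDD to 3 (7.32% to 7.69% of all probes). Without either BPA array the TCDD count rose, while its share of all probes fell. With BPA 10 were called (19.9%), with PCB 7 (20.8%), with TMD 11 (29.5%), with PMT 12 (31.3%), with CPM 9 (29.1%), with DEHP 8 (23.8%) and with MPA 12 (26.7%). BPA gave 7 higher and 3 lower (9.62% and 10.3% of all probes), while PCB gave 1 higher and 6 lower (10.8% and 10.1%) and DEHP 1 and 7 (11.9% and 11.9%). TMD gave 4 and 7 (14.9% and 14.6%), PMT 4 and 8 (15.5% and 15.8%), CPM 4 and 5 (14.7% and 14.4%) and MPA 4 and 8 (13.1% and 13.6%). The BPA, TMD, PMT, CPM and MPA counts fell without either array of their own chemical. The PCB count fell without the 10 nM array and the DEHP count without the 100 µM array. In each case the share of all probes called fell as well. Leaving out some arrays of other chemicals also lowered the PMT and CPM counts. The median log2 difference of the 30 carriers was 0.20 with BPA and lay between -0.28 (MPA) and -0.05 (DHT) with the other 11 chemicals, beside medians of -0.02 to 0.05 over all probes.

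**Figure D1:**
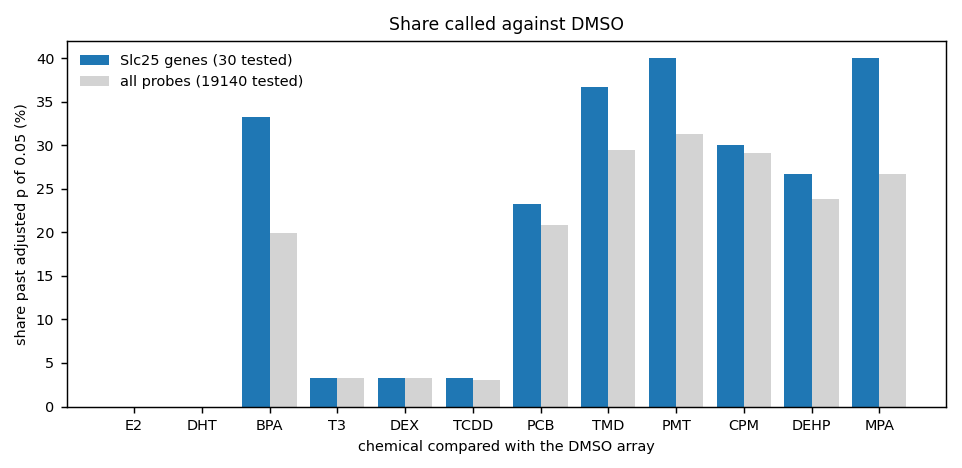
Share of the 30 tested Slc25 genes (blue) and of all 19140 tested probes (grey) that passed an adjusted p of 0.05 against DMSO (y axis, percent) for each chemical (x axis). E2 and DHT have no bar, T3, DEX and TCDD lie near 3%, and BPA and MPA show the widest gaps between the blue and grey bars (33.3% against 19.9%, and 40.0% against 26.7%).

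The authors normalized the arrays of DMSO, E2, DHT and BPA as one set and the 18 arrays of the other 9 chemicals as another, and whether the sets were also handled apart is not given in the sources used here. In the comparisons of those 9 chemicals with DMSO, the set and the chemical cannot be told apart. T3, DEX and TCDD belong to the same set as PCB and the micromolar chemicals and had 3.08% to 3.32% of probes called. The part of the set in the calls of any of these chemicals was not tested.

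**Figure D2:**
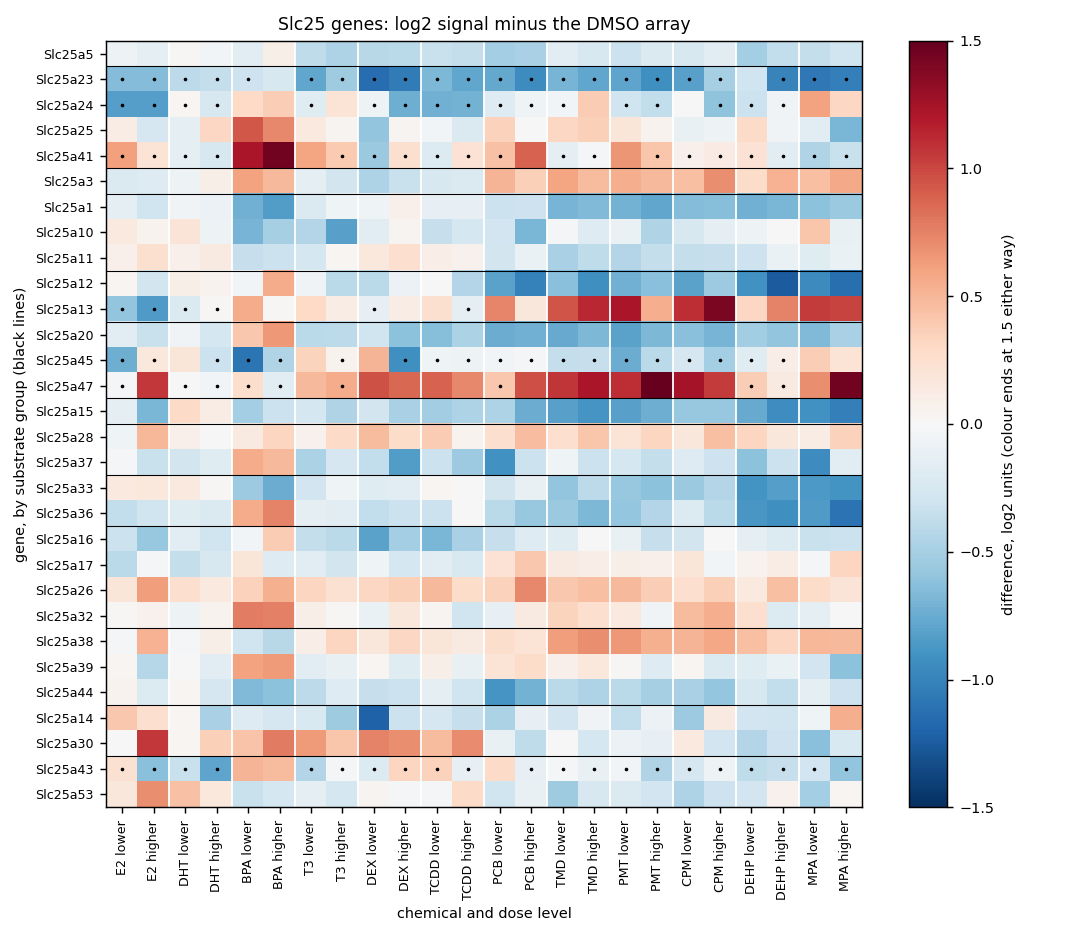
Log2 signal of each Slc25 gene (rows, in substrate groups set apart by black lines) minus its signal on the DMSO array, on each of the 24 arrays of exposed EBs (columns). Red is higher and blue lower than DMSO, and a dot marks an array on which the gene was not detected. Slc25a3 is red, and Slc25a1 and Slc25a33 blue, on both arrays of BPA and of all 5 micromolar chemicals.

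Slc25a3, the phosphate carrier (chromosome 10), was higher with 7 chemicals. Its log2 signal was 13.09 with DMSO, 12.87 and 12.89 with E2 at the lower and the higher dose, 13.01 and 13.17 with DHT, 12.94 and 12.82 with T3, 12.63 and 12.75 with DEX, and 12.85 and 12.87 with TCDD. It was 13.69 and 13.58 with BPA, 13.59 and 13.45 with PCB, 13.68 and 13.56 with TMD, 13.63 and 13.57 with PMT, 13.54 and 13.79 with CPM, 13.37 and 13.60 with DEHP, and 13.54 and 13.65 with MPA. All 14 arrays of those 7 chemicals lay above the other 11 arrays. The 7 were grouped by their calls on these same arrays, so this split adds no support to the calls. The log2 difference from DMSO was 0.40 to 0.58 (SE 0.121), smallest with DEHP (adjusted p 0.017 in limma) and largest with CPM (1.49-fold, adjusted p 0.000588). With DEX the difference was -0.40 (adjusted p 0.0635). With median scaling in place of quantile normalization the calls with BPA, PMT, DEHP and MPA were lost (adjusted p 0.0724 with BPA), and the second probe of Slc25a3 differed by 0.02 to 0.42 with the 7 chemicals and passed with none. The DEHP call was lost without the 100 µM array and the PCB call without the 1 nM array. Slc25a3 was high both where the endoderm markers were low (BPA, PCB, TMD, PMT and CPM) and where they were high (DEHP and MPA). The part of these markers in its signal was not tested.

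Slc25a5, an adenine nucleotide translocase that exchanges ADP for ATP, was lower with 6 chemicals. It had a log2 signal of 14.85 with DMSO, 14.78 and 14.72 with E2, 14.88 and 14.81 with DHT, and 14.70 and 14.95 with BPA. It was 14.47 and 14.39 with T3, 14.44 and 14.45 with DEX, 14.52 and 14.49 with TCDD, 14.34 and 14.36 with PCB, 14.69 and 14.61 with TMD, 14.53 and 14.64 with PMT, 14.62 and 14.69 with CPM, 14.35 and 14.48 with DEHP, and 14.49 and 14.56 with MPA. All 18 arrays of the second normalization set lay below all 7 of the first, so for this gene the chemical and the set cannot be told apart. The fall was largest with PCB (-0.50, SE 0.104, adjusted p 0.000854 in limma) and was also called with T3, DEX, PMT, DEHP and MPA (-0.27 to -0.44). The PMT call (adjusted p 0.0469) was lost when any of 15 arrays was left out, 1 at a time. The T3 and DEX calls were each lost without either of their own arrays and the MPA call without its 1 µM array. With median scaling the PCB, PMT and DEX calls were lost (adjusted p 0.0974 for PCB). The other translocases, Slc25a4, the form of heart and muscle, and Slc25a31, that of testis, were detected on no array.

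**Figure D3:**
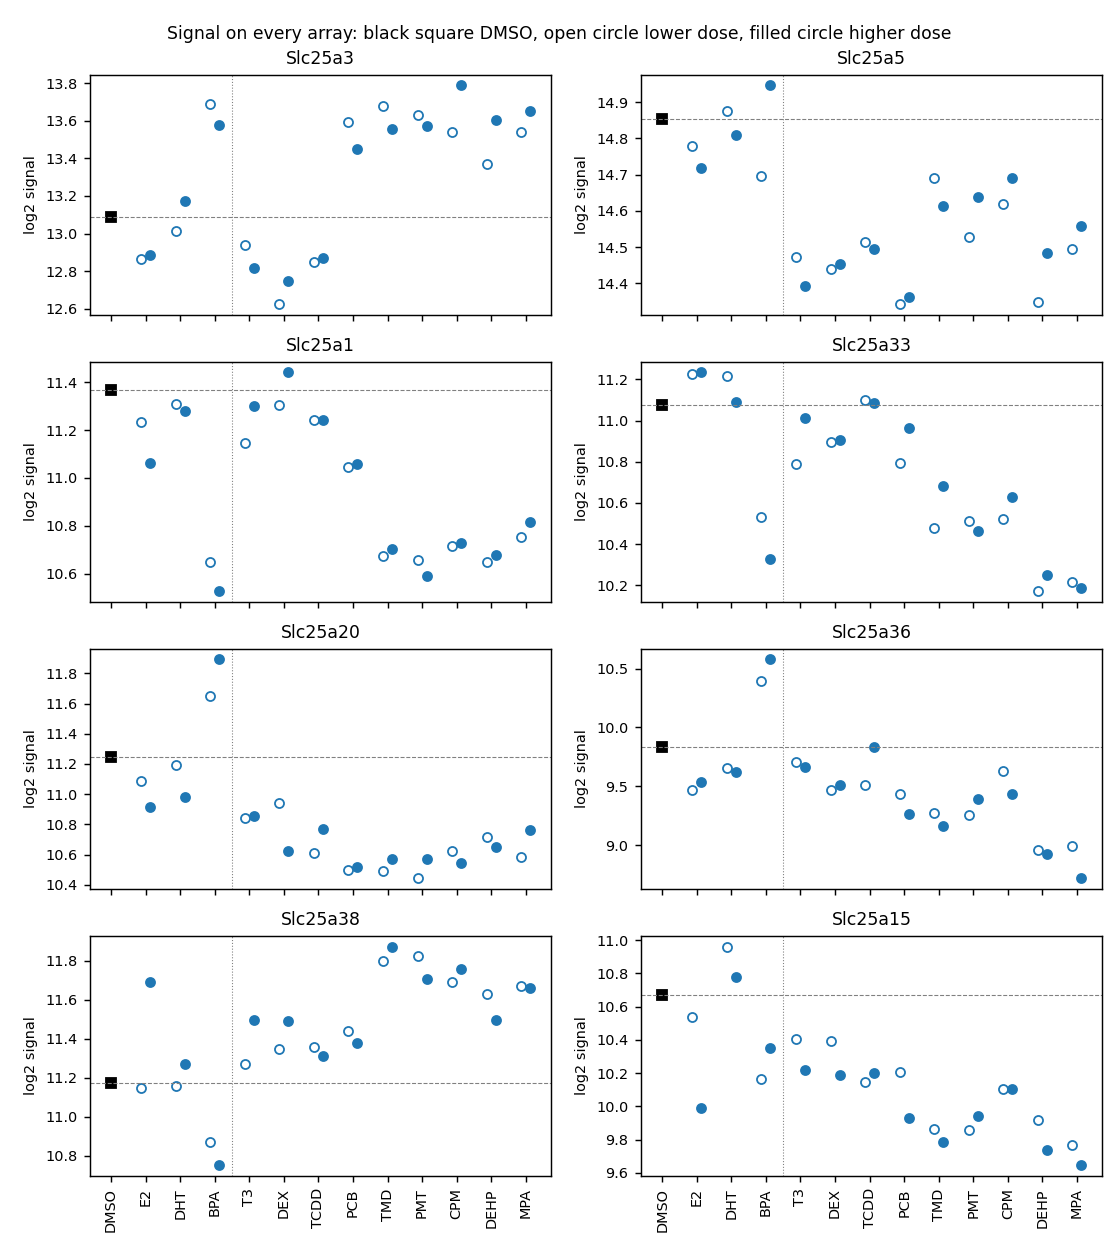
Log2 signal (y axes) of 8 carriers on every array, with DMSO as a black square and dashed line, the lower dose of each chemical as an open circle and the higher dose as a filled one, and a dotted line between the authors' normalization sets. Slc25a3 lies above DMSO with BPA, PCB and the 5 micromolar chemicals, and Slc25a20 and Slc25a36 lie above it with BPA alone. Slc25a1 and Slc25a33 lie furthest below it with BPA and those 5, and by less with several other chemicals.

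Among the carriers of di- and tricarboxylates, Slc25a1, which exports citrate, was lower with 6 chemicals. Its log2 signal was 11.37 with DMSO, 11.23 and 11.06 with E2, 11.31 and 11.28 with DHT, 11.15 and 11.30 with T3, 11.30 and 11.44 with DEX, 11.24 and 11.24 with TCDD, and 11.05 and 11.06 with PCB. It was 10.65 and 10.53 with BPA, 10.67 and 10.70 with TMD, 10.66 and 10.59 with PMT, 10.71 and 10.73 with CPM, 10.65 and 10.68 with DEHP, and 10.75 and 10.81 with MPA. The 12 arrays of the last 6 chemicals lay below all 13 others, which adds no support, as the 6 were grouped by their calls on these arrays. The differences from DMSO ran from -0.58 (MPA, adjusted p 0.000909) to -0.78 (BPA, 1.72-fold lower, SE 0.125, adjusted p 2.59e-05, limma), and each passed under every alternative that was run for the representative probe. The second probe, also detected on all 25 arrays, was lower with all 6 (-0.26 to -0.63) and passed with BPA (adjusted p 0.0295) and PMT (0.0112) but not with CPM (0.0505), TMD (0.0796), MPA (0.178) or DEHP (0.331). The doses of each of these 6 chemicals differed by at most 0.12, less than the smallest of the differences from DMSO.

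The malate and oxoglutarate carrier Slc25a11, which serves the malate-aspartate shuttle, was lower with TMD (-0.44, SE 0.140, adjusted p 0.0191) and PMT (-0.40, adjusted p 0.0299) on its representative probe. The log2 signal was 10.85 with DMSO, 10.36 and 10.46 with TMD and 10.40 and 10.49 with PMT. Another probe of the gene, also detected on all 25 arrays, was higher with PCB (0.65, adjusted p 0.0023), DEHP (0.50, adjusted p 0.0166), MPA (0.43, adjusted p 0.0338) and TMD (0.39, adjusted p 0.0477), and with PCB against T3, DEX and TCDD (0.56, adjusted p 9.69e-05). The remaining probe of Slc25a11 was higher with MPA (0.82, adjusted p 0.0226) and DEHP (0.73, adjusted p 0.0447) and differed by 0.41 with TMD (adjusted p 0.256). With PCB, DEHP and MPA the representative probe differed by -0.19, -0.20 and -0.14 and was not called. The direction of Slc25a11 thus depended on the probe, with the mean of its probes neither call was left, and each was lost without the 0.1 µM array of its chemical. Slc25a10, the dicarboxylate carrier, was called with no chemical (log2 differences -0.63 to 0.15).

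The aspartate-glutamate carriers are the other limb of that shuttle, and the pair that was detected differed in direction. Slc25a12 (aralar) had a log2 signal of 7.97 with DMSO, 7.16 and 6.95 with PCB, 7.34 and 7.05 with TMD, 7.24 and 7.34 with PMT, 7.16 and 7.42 with CPM, 7.06 and 6.71 with DEHP, and 7.01 and 6.84 with MPA. On the other arrays of exposed EBs it was 7.53 to 8.52. It was lower with DEHP (-1.08, SE 0.274, 2.11-fold lower, adjusted p 0.00499), MPA (-1.04), PCB (-0.91) and TMD (-0.77), while with PMT and CPM the difference was -0.68 for both (adjusted p 0.0594 and 0.0624). Its other probe, detected on 9 arrays, passed with DEHP (-1.12, adjusted p 0.0182) and MPA (-0.92, adjusted p 0.047), and was higher with BPA (0.96, adjusted p 0.0475), where the representative probe differed by 0.26 and was not called. The calls of Slc25a12 with PCB and TMD were lost without the higher dose.

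Slc25a13 (citrin) was not detected with DMSO, E2 or DHT. The log2 signal was 5.85 on the DMSO array, 6.80 and 6.98 with TMD, 7.08 and 6.39 with PMT, 6.96 and 7.27 with CPM, and 6.91 and 6.87 with MPA, and it was detected on all 8 arrays of these 4 chemicals. It was called higher with each of them (log2 difference 0.88 to 1.26, adjusted p 0.00552 to 0.0464, limma). Since DMSO gives only a bound, it was at least 1.86-fold higher with TMD, 1.67-fold with PMT, 2.17-fold with CPM and 1.86-fold with MPA, where DMSO was set to the higher of its own signal and the lowest signal of a detected probe. The PMT call was lost when any of 9 arrays was left out, the MPA call without either MPA array and the TMD call without the 10 µM array.

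Among the carriers of carnitine and basic amino acids, Slc25a20, which brings acylcarnitines in for fatty acid oxidation, was lower with 7 chemicals and higher with BPA. It stood at a log2 signal of 11.25 with DMSO, 11.08 and 10.91 with E2, 11.19 and 10.98 with DHT, 11.65 and 11.89 with BPA, 10.84 and 10.86 with T3, 10.94 and 10.63 with DEX, and 10.61 and 10.77 with TCDD. It was 10.50 and 10.52 with PCB, 10.49 and 10.57 with TMD, 10.45 and 10.57 with PMT, 10.62 and 10.55 with CPM, 10.72 and 10.65 with DEHP, and 10.58 and 10.76 with MPA. BPA gave the only arrays above DMSO. The difference was 0.52 with BPA (SE 0.147, 1.44-fold, adjusted p 0.0112) and -0.55 to -0.74 with TCDD, PCB, TMD, PMT, CPM, DEHP and MPA, largest with PCB (1.67-fold lower, adjusted p 0.000579). The other probe of Slc25a20, detected on all arrays, differed by 0.25 with BPA and by -0.26 to 0.09 with the other 7 and passed with none of the 8 (adjusted p 0.548 to 0.972). The TCDD call was lost without either TCDD array.

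Slc25a47, a carrier known from liver, was detected on 15 arrays and not with DMSO, where its log2 signal was 5.31. It was 6.38 and 6.53 with TMD, 6.42 and 6.92 with PMT, 6.56 and 6.35 with CPM, and 6.00 and 6.75 with MPA, and it was called higher with these 4 chemicals (log2 difference 1.07 to 1.36, adjusted p 0.00668 to 0.0354). The bounds were at least 1.38-fold with TMD, 1.60-fold with PMT, 1.38-fold with CPM and 1.31-fold with MPA. Each of these calls was lost without 1 or both arrays of its own chemical. Slc25a45 was detected on 5 arrays and called with no chemical.

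Slc25a15, the ornithine carrier of the urea cycle, was lower with 6 chemicals. The log2 signal of Slc25a15 was 10.67 with DMSO, 10.54 and 9.99 with E2, 10.96 and 10.78 with DHT, 10.17 and 10.35 with BPA, 10.41 and 10.22 with T3, 10.39 and 10.19 with DEX, and 10.15 and 10.20 with TCDD. It was 10.21 and 9.93 with PCB, 9.86 and 9.79 with TMD, 9.86 and 9.94 with PMT, 10.10 and 10.11 with CPM, 9.92 and 9.74 with DEHP, and 9.77 and 9.65 with MPA. All arrays apart from those of DHT lay below DMSO, and the called differences ran from -0.57 (CPM, adjusted p 0.0149) to -0.96 (MPA, SE 0.176, 1.95-fold lower, adjusted p 0.000166). The other detected probe differed by -0.34 to 0.25 and passed with none of the 6. The PCB and CPM calls were lost without the higher dose.

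The pyrimidine nucleotide carriers Slc25a33 and Slc25a36, which supply the nucleotides for mitochondrial RNA and DNA, were lowest with DEHP and MPA. Slc25a33 had a log2 signal of 11.08 with DMSO, 11.22 and 11.23 with E2, 11.22 and 11.09 with DHT, 10.53 and 10.33 with BPA, 10.79 and 11.01 with T3, 10.89 and 10.90 with DEX, 11.10 and 11.09 with TCDD, and 10.79 and 10.96 with PCB. It was 10.48 and 10.68 with TMD, 10.51 and 10.46 with PMT, 10.52 and 10.63 with CPM, 10.17 and 10.25 with DEHP, and 10.21 and 10.18 with MPA. The 12 arrays of BPA and the micromolar chemicals, grouped by their calls on these arrays, lay below all others, which adds no support to the calls. Their differences from DMSO were -0.50 to -0.88 (SE 0.137), largest with MPA (1.83-fold lower, adjusted p 2.58e-05, limma). Slc25a33 has a single probe on the array, and its TMD call was lost without the 0.1 µM array.

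Slc25a36 had a log2 signal of 9.84 with DMSO and of 10.40 and 10.58 with BPA, the highest of all arrays. It was 9.47 to 9.83 with E2, DHT, T3, DEX and TCDD, 9.43 and 9.27 with PCB, 9.27 and 9.16 with TMD, 9.25 and 9.40 with PMT, 9.63 and 9.43 with CPM, 8.96 and 8.92 with DEHP, and 8.99 and 8.72 with MPA. The difference was 0.65 with BPA (SE 0.167, 1.57-fold, adjusted p 0.0057) and -0.98 with MPA (1.97-fold lower, adjusted p 7.53e-05), -0.89 with DEHP, -0.62 with TMD, -0.51 with PMT and -0.49 with PCB. Of the other 2 detected probes of Slc25a36, 1 passed in the same direction with BPA (1.23, adjusted p 0.00868), DEHP (-0.95, adjusted p 0.0382) and MPA (-1.13, adjusted p 0.0123). With TMD both of them differed the other way (0.15 and 0.13, adjusted p 0.754 and 0.797). The PCB call was lost without the 10 nM array and the PMT call without the 0.1 µM array. BPA and the DEHP and MPA pair, which stood at opposite ends for Slc25a36, also stood at opposite ends for the endoderm markers, whereas Slc25a33 was lower with all 3. What the markers have to do with either gene was not tested.

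Slc25a38 brings glycine in for heme synthesis and was higher with 4 chemicals. Its log2 signal was 11.18 with DMSO, 11.15 and 11.69 with E2, 11.16 and 11.27 with DHT, 10.87 and 10.76 with BPA, 11.27 and 11.50 with T3, 11.35 and 11.49 with DEX, 11.36 and 11.31 with TCDD, and 11.44 and 11.38 with PCB. It was 11.80 and 11.87 with TMD, 11.82 and 11.71 with PMT, 11.69 and 11.76 with CPM, 11.63 and 11.49 with DEHP, and 11.67 and 11.66 with MPA. The difference was 0.66 with TMD (SE 0.151, 1.58-fold, adjusted p 0.00136), 0.59 with PMT, 0.55 with CPM and 0.49 with MPA, and that with BPA was -0.36 (adjusted p 0.0903). The other 2 detected probes differed by 0.13 to 0.55 in the same direction and passed with none of the 4.

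Slc25a39, a glutathione carrier, was higher with BPA (0.62, SE 0.177, adjusted p 0.0131), with 10.52 and 10.55 against 9.92 with DMSO and 9.30 to 10.20 on the other arrays. Slc25a44, a carrier of branched-chain amino acids, was lower with PCB (-0.79, SE 0.198, adjusted p 0.00441), BPA (-0.64) and CPM (-0.53, adjusted p 0.0424). The log2 signal of Slc25a44 was 8.70 with DMSO, 7.82 and 8.00 with PCB, 8.04 and 8.08 with BPA, and 8.22 and 8.12 with CPM. The BPA call of Slc25a44 was lost without either BPA array, and the CPM call when any of 4 arrays (both of TMD and both of CPM) was left out and with median scaling or no detection filter. The mitoferrins Slc25a28 and Slc25a37, which import iron for heme and iron-sulfur clusters, were called with no chemical (log2 differences 0.04 to 0.37 for Slc25a28 and -0.62 to 0.52 for Slc25a37).

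Among the ATP-Mg/phosphate carriers, which set the adenine nucleotide content of the matrix, Slc25a25 and Slc25a41 were higher with BPA. Slc25a25 had a log2 signal of 8.56 and 8.35 with BPA, 7.63 with DMSO and 6.94 to 7.98 elsewhere, a difference of 0.83 from DMSO (SE 0.274, 1.77-fold, adjusted p 0.0314). Slc25a41 was at 6.60 and 6.81 with BPA and not detected with DMSO (5.37), so that it was at least 1.64-fold higher (adjusted p 0.00703). Slc25a23 was detected on 3 arrays, DMSO (6.08) among them, and was called lower with PMT and MPA, where it was not detected, by at least 1.17-fold and 1.10-fold. The PMT call was lost when any of 19 arrays was left out and under 3 other alternatives, and the MPA call without either MPA array. Slc25a24 was detected on 7 arrays and called with none.

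Of the cofactor carriers, Slc25a32, a carrier of folate, was higher with BPA, with log2 signals of 7.57 and 7.55 against 6.79 with DMSO and 6.49 to 7.35 elsewhere (difference 0.76, SE 0.266, 1.70-fold, adjusted p 0.0411). Slc25a16, Slc25a17 and Slc25a26, the last a carrier of S-adenosylmethionine, were not called against DMSO, nor were Slc25a14, Slc25a30, Slc25a43 and Slc25a53. The carriers that were higher with BPA, Slc25a3, Slc25a20, Slc25a25, Slc25a32, Slc25a36, Slc25a39 and Slc25a41, thus came from 6 substrate groups. Those of Slc25a25 and Slc25a32 were lost when either BPA array was left out, and those of Slc25a20, Slc25a36 and Slc25a39 without the 100 pM array.

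The second comparison holds the normalization set and the dose range fixed and does not use the DMSO array: each chemical was compared with the other chemicals of its array group. The groups were E2 and DHT, then T3, DEX, TCDD and PCB, then TMD, PMT and CPM, then DEHP and MPA, and BPA has no partner. Of 270 pairs 9 passed (3.33%, beside 3.43% over all probes), 8 of them with PCB and 1 with DEX. For PCB, 8 of 30 carriers were called, 3 higher and 5 lower, beside 28.4% of all probes (14.6% higher and 13.8% lower).

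With PCB, Slc25a3 was higher than with T3, DEX and TCDD, with 13.59 and 13.45 against 12.63 to 12.94, a log2 difference of 0.71 (SE 0.081, 1.64-fold, adjusted p 9.65e-08). Its second probe passed too (0.33, adjusted p 0.0452). Slc25a17, the peroxisomal carrier of nucleotide cofactors, was at 10.52 and 10.71 against 10.03 to 10.24 (0.51, SE 0.114, adjusted p 0.00126), and Slc25a39 at 10.13 and 10.20 against 9.75 to 10.01 (0.32, adjusted p 0.0437). Slc25a30, an uncoupling protein-like carrier first described in kidney, was lower, with 7.47 and 7.21 against 8.00 to 8.33 (-0.86, SE 0.200, 1.82-fold lower, adjusted p 0.00162). Against DMSO (7.58) the same gene differed by -0.25 with PCB and by 0.53, 0.72 and 0.59 with T3, DEX and TCDD, none of which passed.

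Slc25a12 was at 7.16 and 6.95 with PCB against 7.53 to 7.97 (-0.68, SE 0.183, adjusted p 0.00583), and Slc25a44 at 7.82 and 8.00 against 8.31 to 8.56 (-0.51, adjusted p 0.0039). Slc25a20 (-0.27, adjusted p 0.0411) and Slc25a1 (-0.23, adjusted p 0.0408) were lower by less, and their second probes differed the other way (0.24 and 0.31, adjusted p 0.305 and 0.0637). In all 8 genes the PCB arrays did not overlap those of T3, DEX and TCDD. The genes were chosen by the test on these same arrays, so this adds no support to the calls. Without the 10 nM PCB array most of the 8 calls were lost, all but Slc25a3 and Slc25a44. Fewer were lost without the 1 nM PCB array or the 10 nM T3 or TCDD array. The share of all probes called fell in each of these fits as well. The endoderm markers also separated PCB from the other 3 chemicals (19076 to 19152 against 45825 to 52778), and their part in the calls was not tested.

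**Figure D4:**
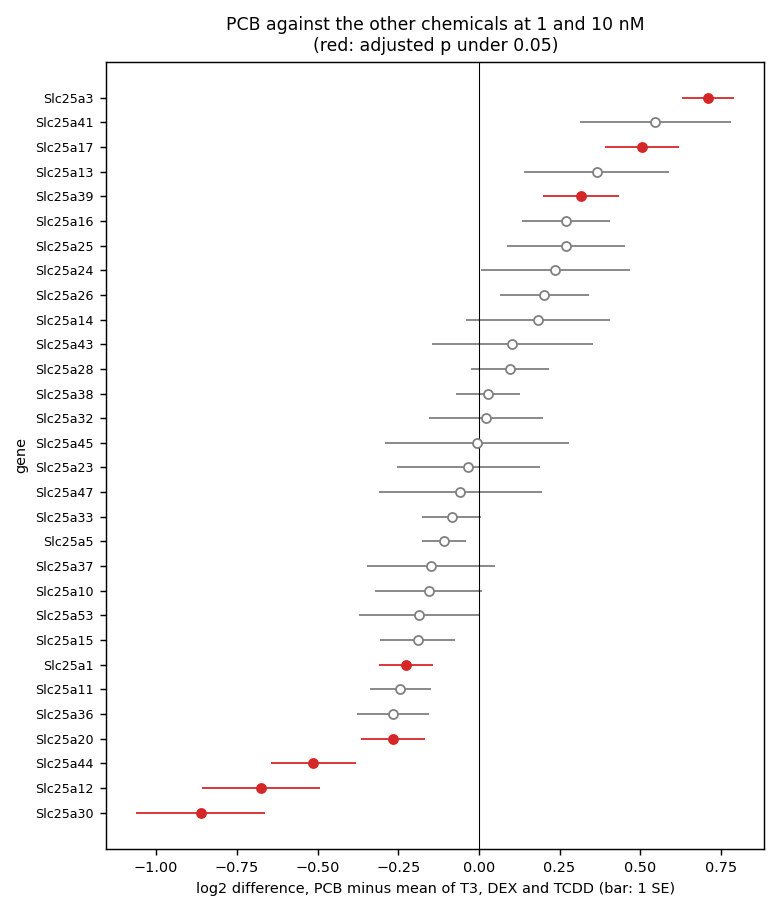
Log2 difference between PCB and the mean of T3, DEX and TCDD (x axis, with 1 SE) for each Slc25 gene (y axis), in red where the adjusted p was under 0.05. Slc25a3 (0.71), Slc25a17 (0.51) and Slc25a39 (0.32) lie to the right of 0 and Slc25a30 (-0.86), Slc25a12 (-0.68) and Slc25a44 (-0.51) to the left.

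The 250 bases before the start are shown for the called genes that were the 2 highest and the lowest with PCB against T3, DEX and TCDD. They were looked at because TCDD, itself part of that reference, and some chlorinated biphenyls act through a receptor that binds a core of GCGTG. Sequences are from the RefSeq promoter table (GRCm38.p6), 5' to 3' on the strand of the gene, which held 36 of the 46 members. Capitals mark the core GCGTG or its reverse complement CACGC, and the ETS motif CCGGAAG or CTTCCGG.
Slc25a3 chr10:91123968-91124217, minus strand: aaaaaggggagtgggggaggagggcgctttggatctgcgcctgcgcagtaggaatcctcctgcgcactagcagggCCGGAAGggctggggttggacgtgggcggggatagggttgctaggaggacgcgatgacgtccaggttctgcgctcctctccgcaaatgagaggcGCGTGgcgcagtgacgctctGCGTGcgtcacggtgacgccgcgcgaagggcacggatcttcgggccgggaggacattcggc
Slc25a17 chr15:81360766-81361015, minus strand: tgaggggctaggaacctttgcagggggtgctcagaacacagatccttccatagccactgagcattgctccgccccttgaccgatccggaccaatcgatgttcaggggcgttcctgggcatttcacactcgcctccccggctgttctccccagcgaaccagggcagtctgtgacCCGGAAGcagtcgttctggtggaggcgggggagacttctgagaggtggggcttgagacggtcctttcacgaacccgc
Slc25a30 chr14:75787038-75787287, minus strand: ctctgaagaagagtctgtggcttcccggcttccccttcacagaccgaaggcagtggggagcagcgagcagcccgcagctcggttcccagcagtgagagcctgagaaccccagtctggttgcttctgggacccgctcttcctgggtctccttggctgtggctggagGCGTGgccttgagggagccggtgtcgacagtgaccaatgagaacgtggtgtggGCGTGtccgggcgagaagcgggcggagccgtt

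Slc25a3 held 2 copies of the core and 1 ETS motif, Slc25a17 no core and 1 ETS motif, and Slc25a30 2 copies of the core and no ETS motif. The Slc25a3 window runs into the gene as annotated (chr10:91116574-91124046). Its second core lies inside the gene and its first across the gene's end, so neither lies wholly outside the annotated gene. Over all 32851 windows of this length, 28.2% held the core and 6.91% the ETS motif. Of the 25 detected carriers with a window, 15 held the core (60.0%) and 4 the ETS motif (16%) in at least 1 of their windows. The 4 were Slc25a3, Slc25a17, Slc25a20 and Slc25a38. The shares of carriers count genes, some of which have several windows. The shares over all windows count each window on its own, whether or not its gene was detected. These shares are therefore not comparable, and enrichment was not tested. Genes with the core were found on both sides of the PCB comparison (Slc25a3 higher, Slc25a30 lower), and Slc25a1, Slc25a33 and Slc25a39 also held it. With TCDD, no carrier passed against the other chemicals of the array group (1.97% of all probes, 1.46% lower, 3 carriers at an unadjusted p under 0.05). A match of letters is a description and does not show binding.

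With DEX, Slc25a3 was lower than with T3, TCDD and PCB together (-0.40, SE 0.081, adjusted p 0.0184), 1 carrier of 30 beside 0.517% of all probes, 0.251% of them lower. That reference holds the high PCB arrays, and against T3 and TCDD alone the difference was -0.18 (adjusted p 1), and the second probe differed by -0.02. The DEX call was also lost without either DEX array, the 1 nM T3 array or the 1 nM PCB array. No carrier passed for T3 (0% of all probes), TMD (0.00522%), PMT (0%) or CPM (0%), nor between E2 and DHT (0%) or DEHP and MPA (0%). At an unadjusted p under 0.05 there were 1, 0, 1, 1, 5 and 4 carriers. The moderated F test over these array groups called 2 carriers (11.6% of all probes), Slc25a3 (adjusted p 2.47e-05) and Slc25a15 (adjusted p 0.0437). Slc25a15 was lost when any of 18 arrays was left out, and 6 carriers passed an unadjusted p under 0.05.

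For E2 the median absolute difference between the doses was 0.28 for the carriers and 0.29 for all probes, and 0.11 to 0.20 with the other chemicals. When the 1 nM array was left out and the 10 nM array alone stood for E2, with the lone array assumed to vary like the others, 5 carriers were called against DHT (14.5% of all probes). They were Slc25a15 (-0.88, SE 0.147, adjusted p 0.000198), Slc25a30 (0.86), Slc25a38 (0.48), Slc25a28 (0.46) and Slc25a47 (1.08). Slc25a15 was at 9.99 on this array against 10.54 at 1 nM, Slc25a30 at 8.64 against 7.57, and Slc25a38 at 11.69 against 11.15. Against DMSO the same fit called Slc25a15 (-0.68, adjusted p 0.0104), Slc25a30 (1.06, adjusted p 0.0151) and Slc25a38 (0.52, adjusted p 0.0157). In that fit more carriers were called within array groups and by the F test, and the share of all probes past the F test rose as well. Without the 10 nM array, E2 had no called carrier against DMSO or DHT, and the F test called Slc25a3, Slc25a17 and Slc25a30 (15.1% of all probes).

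The higher dose was compared with the lower over the 12 chemicals, and no carrier passed, as did no probe of the array (0%). The doses of a chemical differ by 10 or 100 times, so the comparison is of the higher with the lower dose and not of a fixed step. At an unadjusted p under 0.05 there were 3 carriers. Slc25a11 differed by 0.11 (SE 0.042, p 0.0150 and adjusted p 0.373 in limma) and was higher at the higher dose with 11 of 12 chemicals. Slc25a39 differed by -0.12 (adjusted p 0.425) and Slc25a15 by -0.12 (adjusted p 0.439). No carrier passed in the 5 micromolar chemicals or in the 6 at 1 and 10 nM, nor did the dose effect differ between them for any (0% of all probes in each).

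Several genes were read by more than 1 detected probe, and these served as a check of the calls against DMSO. Of 47 called pairs of gene and chemical in 9 genes, the other probes had the sign of the representative probe in 38, and in 8 of these another probe was called too. In 9 pairs, of Slc25a11, Slc25a15, Slc25a20 and Slc25a36, at least 1 other probe had the opposite sign, and that probe passed in 1, Slc25a11 with TMD. Slc25a1, Slc25a3, Slc25a12, Slc25a13 and Slc25a38 kept 1 sign over all their probes in all pairs called against DMSO. Of 5 such called pairs within array groups, another probe had the opposite sign in 2, of Slc25a1 and Slc25a20, and passed in neither.

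**Figure D5:**
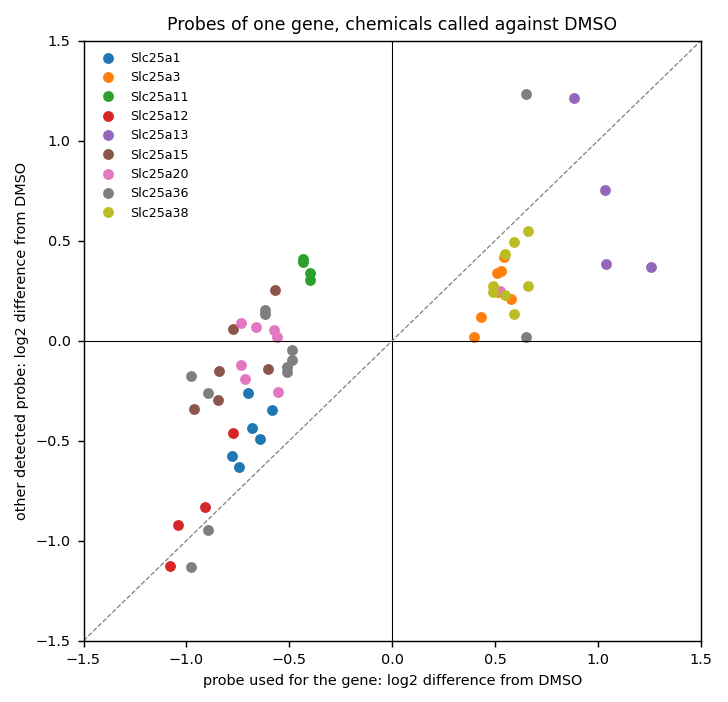
Log2 difference from DMSO on the representative probe (x axis) and on each other detected probe of the same gene (y axis) for the chemicals called on the representative probe, with colours for genes and a dashed line of equality. Most points lie nearer to 0 on the y axis than on the x axis, and the Slc25a11 points lie in the upper left with -0.44 and -0.40 on x and 0.30 to 0.41 on y.

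Other proteins of the same route were looked at beside the family. Carrier precursors are received at the outer membrane by Tomm70a and handed to the small Timm chaperones of the intermembrane space. Of 8 detected genes of this route, 2 were higher and 1 lower with TMD and with CPM, 1 and 1 with PCB, PMT, DEHP and MPA, 0 and 1 with BPA, and none with E2, DHT, T3, DEX or TCDD. Over all probes, 29.5% were called with TMD, 29.1% with CPM, 20.8% with PCB, 31.3% with PMT, 23.8% with DEHP, 26.7% with MPA and 19.9% with BPA. With so few genes, these counts do not set the route apart from the array as a whole. Tomm70a was higher with PCB (0.84), TMD (1.01), PMT (1.50, SE 0.214, adjusted p 3.79e-06), CPM (1.30), DEHP (0.77) and MPA (1.35), and Timm8b was lower with the same 6 (-0.48 to -0.70). Timm8b also differed by -0.45 with T3 (adjusted p 0.0602), -0.43 with DEX (adjusted p 0.0711) and -0.29 with TCDD, the other chemicals of the second normalization set, and by -0.09 between PCB and T3, DEX and TCDD (adjusted p 0.482). These 6 are also 6 of the 7 chemicals with which Slc25a3 was higher, and all comparisons share the DMSO array. Against T3, DEX and TCDD, which leaves DMSO out, PCB gave higher Tomm70a (0.60, adjusted p 0.00222) and Timm10 (0.67, adjusted p 0.000112).

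All 3 outer membrane pores (Vdac1, Vdac2 and Vdac3), through which metabolites reach the carriers, were detected. Vdac2 was higher with the same 6 chemicals as Tomm70a (0.68 to 0.88, SE 0.141) and with PCB against T3, DEX and TCDD (0.62, SE 0.094, adjusted p 1.03e-05), where Vdac3 was higher as well (0.30, adjusted p 0.0128). Vdac1 was higher with BPA (0.32) and CPM (0.29). Mtch1, an outer membrane protein of the carrier family under another name, was higher with TMD, PMT and CPM (0.39 to 0.50), and Mtch2 with BPA (0.38, adjusted p 0.0232). Of the 4 detected sideroflexins, a family of serine carriers, Sfxn1 was lower with CPM (-0.35) and with PCB against the others (-0.30), and Sfxn5 was higher with MPA (1.35, adjusted p 0.0226).

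The mean log2 signal over the 25 arrays was 14.59 for the probe of Slc25a5, 13.28 for that of Slc25a3 and 11.45 for that of Slc25a38, the 3 brightest, and 5.39 for Slc25a23, 5.47 for Slc25a43 and 5.57 for Slc25a45, the 3 dimmest. A probe's brightness depends on the probe as well as on its transcript, so these values order probes and not transcripts. Of the 16 carriers with no kept probe, Slc25a29, Slc25a34 and Slc25a42 were detected on 1 array. Slc25a2, Slc25a4, Slc25a18, Slc25a21, Slc25a22, Slc25a27, Slc25a31, Slc25a35, Slc25a40, Slc25a46, Slc25a48, Slc25a51 and Slc25a54 were detected on none. At the signal of these arrays their transcripts were not detectable, which does not show that they were absent.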

How the data were processed

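The authors deposited a non-normalized intensity per probe and array with a detection p-value (31.7% to 35.0% of signals below 0, so background had been subtracted) and a table of intensities normalized in GeneSpring GX 10 in separate sets of 7 and 18 arrays, used only as an alternative. Background was corrected with nec of limma 3.58.1 (R 4.3.3, offset 16), and quantile normalization and log2 were applied to all 25 arrays at once. The filter kept 19140 of 45281 probes, those with a detection p-value below 0.01 on 2 or more arrays, and the kept probe of highest mean stood for a gene. Symbols came from the platform annotation, and all 76 member probes matched RefSeq. A model with 12 chemicals and DMSO (12 residual degrees of freedom) was fitted in limma (eBayes with trend, Benjamini-Hochberg over all kept probes at 0.05). The dose comparison used a second model of the exposed arrays, with chemical and dose level as terms (11 residual degrees of freedom). The scripts were tested on simulated data. The number of arrays limits the precision. The p-values measure the spread between doses or, in the dose comparison, how that difference varied between chemicals, and not a spread between replicates.

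Named are the adenine nucleotide and phosphate carriers, members past the F test, the 3 of largest change in each comparison, the 3 of lowest p by dose, the 3 brightest and dimmest, and genes whose probes differed in sign, and the other called members were named after their values were seen. Members and lists were chosen with earlier results of these data known. Alternatives were another background, scaling, filter, trend, probe mean and reference, the authors' table, normalization within sets, a dose term and leaving out each array. The title of 1 DHT array gives 1M where its description gives 1 nM, and the latter was used. The methods state triplicate experiments while the labels give 1 array a condition, and they name the first version of the WG-6 array where the tables are of the second.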

Additional observations from a re-analysis of the deposited data

How the results depend on the processing

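Against DMSO, the count of 72 pairs was 53 to 74 under 7 alternatives of background, scaling, filter, trend, probe mean and dose term. With the probe mean it was 53 of 360 pairs, beside 15.9% over all, so the family's share was then not above that over all. It was 65 of 552 pairs with no filter (6.6% of all probes) and 66 of 276 with probes detected on all 25 arrays (20.8%). With DMSO, E2 and DHT together as the reference of the other 10 chemicals it was 114 of 300 pairs (35.5% of all probes). Leaving out each array gave 65 to 90 pairs. Within array groups, the count of 9 was 6 to 11 under 9 alternatives, beside 1.32% to 4.48% over all probes. It was 8 without PCB in the reference of T3, DEX and TCDD, an alternative chosen after seeing the data. Leaving out each array gave 3 (without the 10 nM PCB array) to 15 (without the 1 nM E2 array). The F test called 1 carrier instead of 2 with no detection filter and 1 with the authors' table, Slc25a3 in both, and 1 to 6 when an array was left out. The dose comparison gave 0 under every alternative run and 0 to 0 when an array was left out. The scaling to the median of the probes detected on all arrays moved the median of all probes by up to 0.09, against 0.05 with quantile normalization.

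With kept probes averaged per gene the sign turned for Slc25a11 with TMD (0.12) and PMT (0.081) and for Slc25a1 with PCB against the others (0.043), and a further 23 of 83 single calls were lost. Without a trend 15 were lost, with no filter 13, and with the median scaling 9, among them Slc25a3 with BPA (adjusted p 0.0724), PMT, DEHP and MPA. No other sign turned. The dose comparison paired the lower and the higher dose within each chemical. No pairing with DMSO or between chemicals was possible because the labels give no replicate numbers and each condition has 1 array. The dim carriers Slc25a13, Slc25a23, Slc25a41 and Slc25a47, near background on many arrays, are the least certain.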
